A study of Rattus norvegicus with 16 samples.

Results

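The question here was whether an iodinated contrast medium shifted the same microRNAs (miRNAs) by the same amount in blood plasma and in the kidney of rats. The quantity compared was the tissue by treatment interaction: the CI-AKI minus control difference in plasma, minus that in kidney, on the log2 scale. CI-AKI stands for contrast-induced acute kidney injury, the name of the model. A miRNA entered when the scanner called it detected on all 4 arrays of at least 1 group in plasma and of at least 1 group in kidney. This rule kept 87 of the 350 miRNAs on the array, of which 65 were detected on all 16 arrays and 22 on fewer.

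Male Sprague-Dawley rats, whose age is not given in the sources used here, lost access to water for 3 days and received the diuretic furosemide at 10 mg/kg, controls included. CI-AKI rats were given 10 ml/kg of Omnipaque, an iohexol solution with 350 mg of iodine per ml, and controls an equal volume of normal saline. Both tissues were taken 8 h later, so each group is 1 time point. RNA from 3 rats made up each pool, and 4 pools made up each of the groups plasma control, plasma CI-AKI, kidney control and kidney CI-AKI. With 24 rats in all, plasma and kidney came from the same animals, but the labels do not tie a plasma pool to a kidney pool.

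A miRNA is a short RNA held in an Argonaute protein, which it guides to messenger RNAs that pair with its seed, bases 2 to 8 from the 5′ end. In a solid organ miRNAs act inside the cells that make them. In plasma they lie outside cells, in vesicles and protein complexes shed by blood cells, endothelium and organs, so a plasma level adds up many sources while a kidney level reflects the cells of that organ and the blood left in it.

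The mature sequences of 72 of the 87 miRNAs were matched in RefSeq (assembly GRCr8), and they held 50 seeds, 11 of them shared by 33 miRNAs. The sequences shown carry the results below, with the seed in capitals. The first is miR-327, for which the tissues differed, and the second is miR-199a-3p, which followed it in the order of p among the matched miRNAs.
miR-327: cCUUGAGGggcaugagggu
miR-199a-3p: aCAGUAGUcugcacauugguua
MiR-327 lies on chromosome 20 (13161137 to 13161155, minus strand), and no annotated host gene spans it in that table. MiR-199a-3p lies on chromosome 13 (77116294 to 77116315, plus strand) within the span of Dnm3.

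The miR-23, miR-27 and miR-24 miRNAs are made from a pair of clusters, and all 5 had a more negative difference in plasma than in kidney. MiR-23a and miR-23b share their seed and differ near the 3′ end, as do miR-27a and miR-27b, while both copies of miR-24 have 1 sequence.
miR-23a: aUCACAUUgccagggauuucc
miR-23b: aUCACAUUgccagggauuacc
miR-27a: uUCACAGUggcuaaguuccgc
miR-27b: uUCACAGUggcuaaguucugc
miR-24: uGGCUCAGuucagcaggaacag
MiR-23a (40859778 to 40859798), miR-27a (40859614 to 40859634) and 1 copy of miR-24 (40859481 to 40859502) lie on the minus strand of chromosome 19. MiR-23b (1819405 to 1819425), miR-27b (1819163 to 1819183) and the other copy of miR-24 (1818672 to 1818693) lie on the minus strand of chromosome 17, within the span of Aopep.

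The miR-15/16 family shares 1 seed, and its 4 measured members all had a lower mean in CI-AKI plasma. MiR-15b and miR-16 lie together within Smc4 on chromosome 2, and miR-195 and miR-497 lie together on chromosome 10.
miR-15b: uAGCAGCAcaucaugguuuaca
miR-16: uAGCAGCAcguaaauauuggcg
miR-195: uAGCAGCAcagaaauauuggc
miR-497: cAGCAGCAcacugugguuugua
The last set holds miR-188 and miR-494, whose means were higher in CI-AKI pools of both tissues. MiR-188 lies within Clcn5 on chromosome X and miR-494 in the imprinted Dlk1-Dio3 region on chromosome 6.
miR-188: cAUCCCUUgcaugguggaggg
miR-494: uGAAACAUacacgggaaaccucu

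The arrays differed in quality in ways that touch every value from plasma. Plasma control pool 4 and plasma CI-AKI pool 4 had 84 and 95 detected miRNAs, against 156 to 211 on the other plasma arrays and 169 to 216 on the kidney arrays. Their mean log2 signal before scaling was 4.27 and 5.07, against 7.13 to 9.26 on the other plasma arrays. Of the 22 miRNAs not detected on every array, 15 were missing on plasma control pool 4 alone. Plasma lay on 1 slide and kidney on another, so tissue and slide cannot be told apart, but each treatment difference was taken within 1 slide. Control pools lay in columns 1 and 3 and CI-AKI pools in columns 2 and 4 of either slide, so treatment and column cannot be told apart. The samples also carry 8 letter codes, each used once per tissue, and 6 of the 8 stand for opposite treatments in plasma and kidney; their meaning is not given in the sources used here, and the titles set the groups.

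The labelled tissues were checked against defining miRNAs. The liver miRNA miR-122 was detected on every plasma array and on no kidney array. All 5 members of the epithelial miR-200 family were detected on every kidney array. In plasma none of them was detected on all 4 arrays of either group, but for each the best group had 3 detecting arrays. Their summed signal was 27.65 to 108.2 in plasma control and 1277 to 1348 in kidney control pools. Of 5 tubule-enriched miRNAs, 3 were detected on all kidney arrays, and miR-211 and miR-215 on none. In each plasma group 2 of the 5 were detected on all 4 arrays. The summed signal of the 5 did not separate the tissues, at 1016 to 1543 in plasma control and 918.7 to 1043 in kidney control pools. MiR-122, the miR-200 family, the muscle miRNAs and the miR-181 family had no member among the 87, as none met the rule in both tissues. For miR-181a, miR-181b and miR-181d the best plasma group had 3 detecting arrays, and for the muscle miRNA miR-133b the best kidney group had 3.

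The treatment differences of most miRNAs did not differ between the tissues beyond the spread between pools. In limma with Benjamini-Hochberg adjustment over the 87, 1 miRNA passed an adjusted p of 0.05 for the difference between tissues, miR-327, which is 1.15% of those tested. An unadjusted p under 0.05 was found for 3 miRNAs (3.45%), miR-327, miR-335 and miR-199a-3p, each with the more negative difference in plasma, and for 0 with the more positive one. Within the tissues, 0 of 87 passed in plasma (0%), where 4 (4.6%) had an unadjusted p under 0.05 and the smallest adjusted p was 0.696. In kidney 3 passed (3.45%), miR-327, miR-466b and miR-494, all higher in CI-AKI, and 7 (8.05%) had an unadjusted p under 0.05. A call in kidney and none in plasma does not show that a miRNA responded differently: for miR-466b and miR-494 the difference between tissues did not pass.

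**Figure D1:**
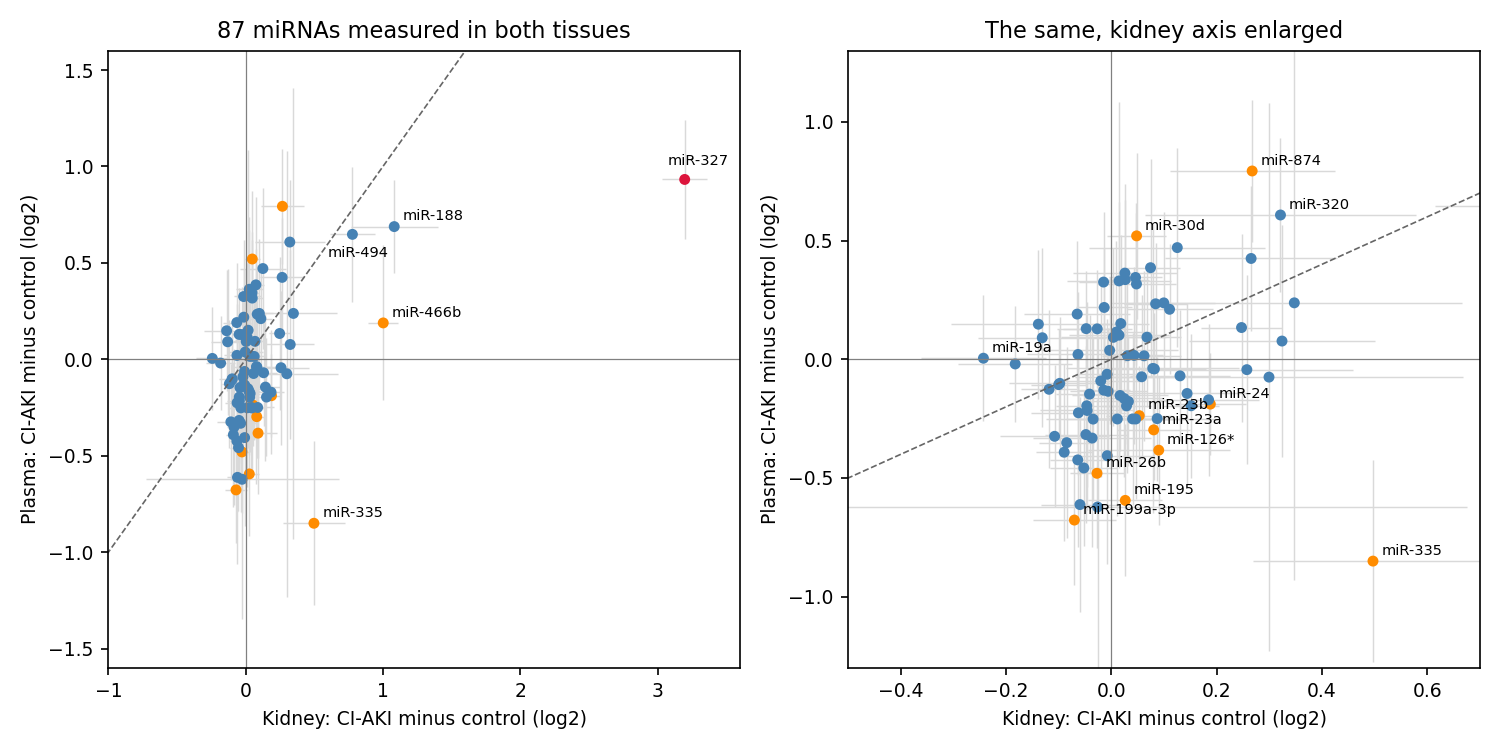
Treatment difference (CI-AKI minus control, log2) in kidney on the x axis and in plasma on the y axis for the 87 miRNAs, with standard errors as grey bars; the right panel enlarges the kidney axis and leaves out the miRNAs beyond it. Points on the dashed line would have equal differences in both tissues; miR-327 (red) is the 1 miRNA that passed, and orange marks the other 11 of the 12 with the smallest p.

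MiR-327, annotated in the rat, gave the 1 difference between tissues that passed. In plasma its scaled signal was 366, 502.5, 389 and 679.5 in the control pools and 1415, 846, 747.5 and 721.5 in the CI-AKI pools. In kidney it was 1.46, 1.14, 0.432 and 0.952 in the control pools, where no array detected it, and 8.95, 14.3, 15.8 and 11.4 in the CI-AKI pools, where all 4 did. The groups did not overlap in either tissue, and the level was far lower in kidney than in plasma throughout.

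The log2 difference of miR-327 was 0.93 (SE 0.31, adjusted p = 0.696) in plasma and 3.20 (SE 0.16, adjusted p = 2.81e-06) in kidney. The difference between tissues was -2.27 (SE 0.35, 95% interval -3.004 to -1.53, adjusted p = 0.000702, limma), that is, a smaller rise in plasma. Since no kidney control array detected it, the kidney control level is a bound: the CI-AKI mean was at least 10.5-fold higher, with each control array set to its lowest detected signal where its own was lower. The call held without pool 4 of both plasma groups (-1.98, adjusted p = 0.00162) and without each array in turn (-2.49 to -2.09, adjusted p 8.86e-05 to 0.00275). Slide row 1 gave -1.68 and slide row 2 gave -2.85. Its 2 probes gave -1.43 and -2.66.

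The call for miR-327 has limits. MiR-327 entered in kidney through the CI-AKI group alone, so the rule itself used detection in the group where its signal was higher. The exact permutation test, which exchanges treatment labels within each tissue over 4900 labellings, gave p = 0.0694 for it (two-sided; the smallest p it can give is 0.000408). With the floor raised to 43.2, the highest of the arrays' lowest detected signals, the whole kidney rise lies under the floor and the difference turned to 0.93. With normexp background correction it was 0.52. Its kidney signal in both groups lay below what the pool 4 plasma arrays could detect.

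Markers of blood were read beside this rise, since in the control arrays miR-327 had the highest ratio of plasma to kidney signal of the 87. In kidney the summed signal of the erythroid miRNAs miR-451 and miR-144 was 105.4 to 227 in control and 183 to 199.7 in CI-AKI pools, and that of 6 leukocyte miRNAs was 452.5 to 520.2 and 419.8 to 539.9. MiR-451 had a kidney difference of 0.26, miR-144 of 0.13, miR-223 of 0.01 and miR-150 of 0.06. The other tested leukocyte miRNAs had negative ones, miR-142-3p of -0.13, miR-142-5p of -0.14 and miR-146a of -0.03. None passed the test, and their part in the rise of miR-327 was not tested.

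**Figure D2:**
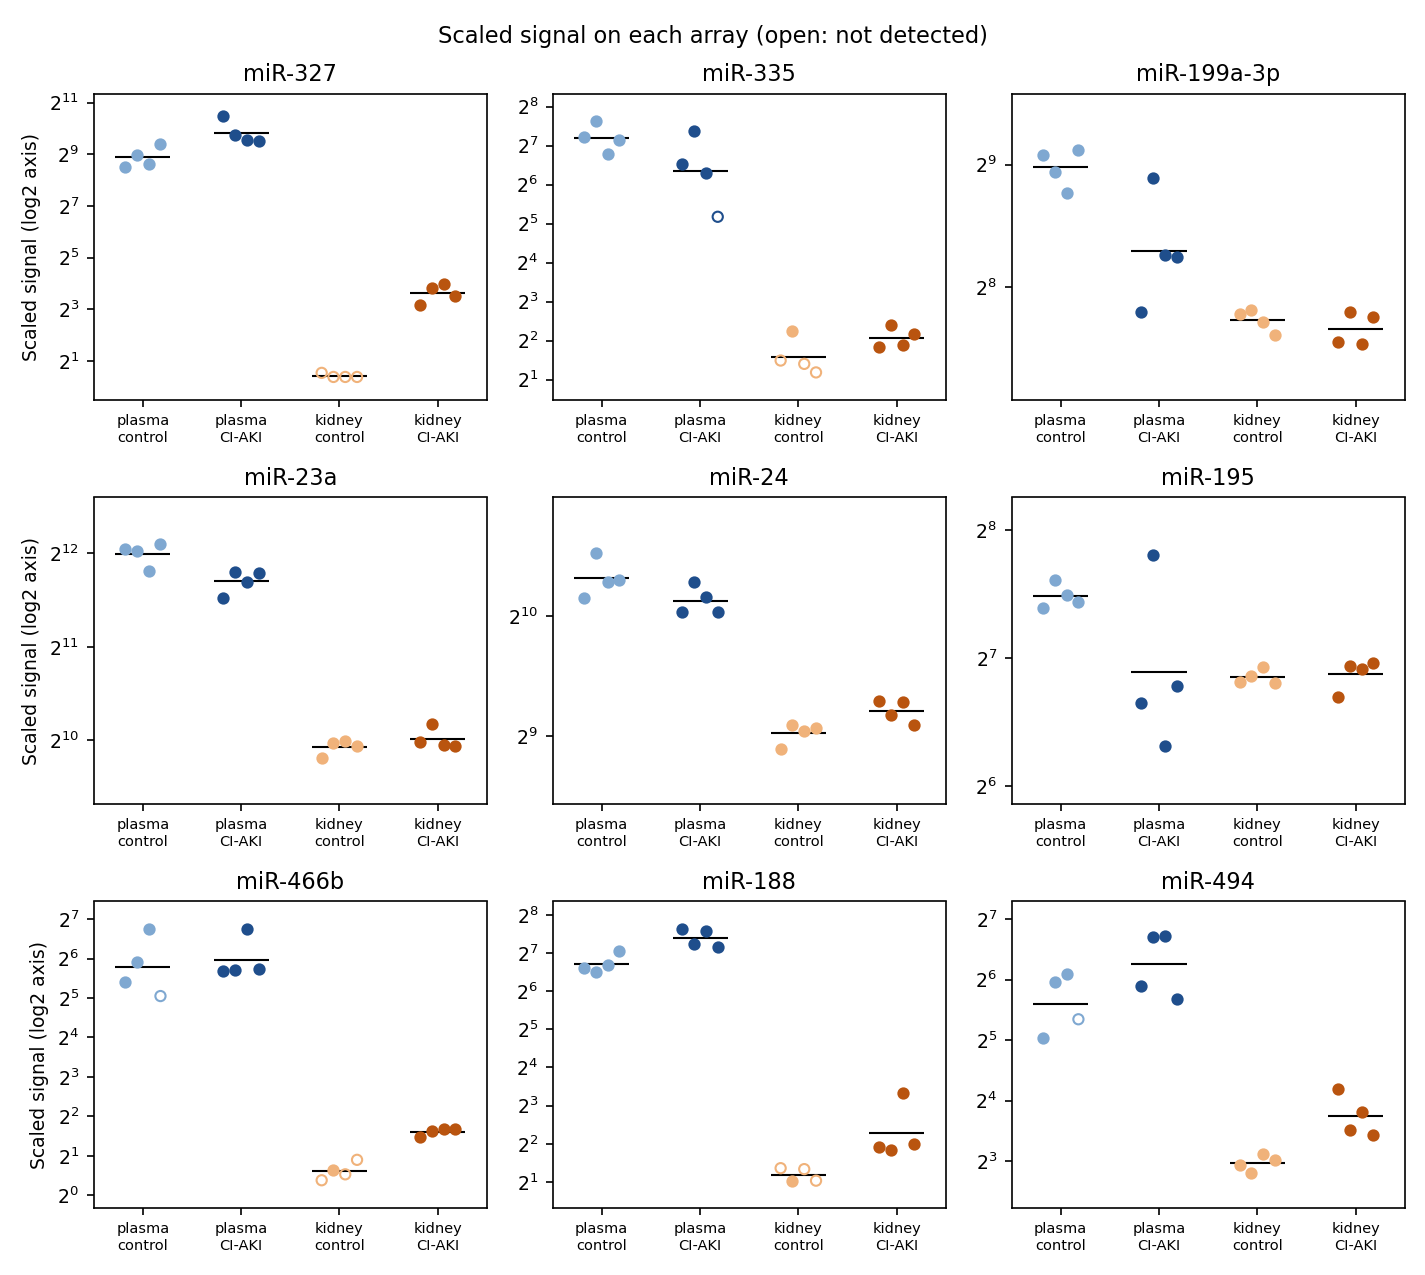
Scaled signal (log2 axis, each panel with its own range) of 9 miRNAs on each of the 16 arrays, 4 pools per group. Bars are means of log2 values and open points are arrays that did not detect the miRNA, drawn at no less than the floor of 1.31; miR-327, miR-466b and miR-188 sit far lower in kidney than in plasma.

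MiR-466b, miR-188 and miR-494 were, with miR-327, the 4 miRNAs with the highest kidney differences, and all 4 were brighter in plasma than in kidney controls, as were 60 of the 87. MiR-466b belongs to a large rodent family within an intron of Sfmbt2. Its plasma signal was 42.1, 60.3, 107.4 and 33.1 in control and 51.3, 52.4, 107.4 and 52.8 in CI-AKI pools, and its kidney signal 1.26, 1.56, 1.45 and 1.87 against 2.79, 3.12, 3.19 and 3.18. The plasma groups overlapped and the kidney groups did not. Its log2 difference was 0.19 (SE 0.40) in plasma and 1.002 (SE 0.11, adjusted p = 0.000506, limma) in kidney, and -0.81 (95% interval -1.74 to 0.12, adjusted p = 0.929) between them. Control arrays of the kidney detected it in pool 2 alone. MiR-466b entered in both tissues through the CI-AKI group alone, so in kidney the rule itself used the group where its signal was higher. On all kidney arrays 1 of its 2 probes stood at the floor, so its kidney rise comes from the other probe. Its kidney call was lost under both quantile normalizations (adjusted p 0.107 and 0.124, limma). It was also lost with normexp (adjusted p 0.947, limma) and with the floor of 43.2, above its kidney signals.

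MiR-188, which the study followed up, had plasma signals of 97.3, 91.1, 103 and 133 in control and 199.5, 152, 191 and 142 in CI-AKI pools. In kidney it read 2.57, 2.04, 2.52 and 2.05 against 3.80, 3.55, 10.1 and 3.99. The groups did not overlap in either tissue, and in kidney CI-AKI pool 3 stood above the other pools. In kidney control it was detected in pool 2 alone, so the kidney difference is taken against a group mostly not above background, and miR-188 entered in kidney through the CI-AKI group alone. The log2 difference was 0.69 (SE 0.24) in plasma and 1.08 (SE 0.32) in kidney, with -0.39 (95% interval -1.22 to 0.43) between them. Slide row 1 put the latter at 0.20 and slide row 2 at -0.99, so its sign is not settled.

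MiR-494 has been studied in ischaemic kidney injury. Its plasma signal was 32.6, 61.9, 68.1 and 40.6 in control and 59.6, 104.6, 105.2 and 51.3 in CI-AKI pools, which overlapped. In kidney it was 7.64, 6.97, 8.63 and 8.05 against 18.3, 11.5, 14.1 and 10.8, which did not. The log2 differences were alike in size, 0.65 (SE 0.35) in plasma and 0.78 (SE 0.16, adjusted p = 0.0352, limma) in kidney, and the difference between them was -0.13 with an interval from -0.96 to 0.70. Its 2 probes put that difference on opposite sides of 0, at -0.29 and 0.20. The kidney call was lost in limma without any 1 of the control pools of the kidney (adjusted p 0.0652 to 0.124), without kidney CI-AKI pool 3 (0.0873), with slide row as a block (0.0800) and with the pool number as a replicate block (0.0553). It was also lost under both quantile normalizations (0.107 and 0.133), without scaling (0.25), with spike-in scaling (0.194), in the authors' processed values (0.0932), when detection on 1 array per tissue sufficed (0.131), with normexp (0.947) and with the floor of 43.2, above its kidney signals.

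Groups that did not overlap were found for 3 miRNAs in plasma (3.45%) and 9 in kidney (10.3%). In plasma they were miR-327, miR-188 and miR-23a. In kidney they were miR-327, miR-466b, miR-494, miR-188, miR-24, miR-27a, miR-27b, miR-30b-5p and miR-365.

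MiR-335 followed miR-327 in the order of p. It is made within Mest, an imprinted gene. Its plasma signal was 149.5, 199, 110.1 and 141.5 in control and 92.1, 167, 78.8 and 36.2 in CI-AKI pools, the last not detected. In kidney it was 2.81, 4.72, 2.65 and 2.28 against 3.58, 5.32, 3.71 and 4.51, with 1 control array detecting it. The groups overlapped in both tissues, and the means moved in opposite directions: the log2 difference was -0.85 (SE 0.43) in plasma and 0.50 (SE 0.23) in kidney, with -1.35 (SE 0.51, 95% interval -2.43 to -0.27) between them. It did not pass after adjustment (adjusted p = 0.78). Without pool 4 of both plasma groups the value was -0.97. MiR-335 entered in plasma through the control group alone and in kidney through the CI-AKI group alone. In each tissue the rule thus used detection in the group with the higher mean, which favours differences in these directions.

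MiR-199a-3p, a miRNA of fibroblasts and other mesenchymal cells, had plasma signals of 541, 491.5, 436 and 557.5 in control and 222.5, 476, 307 and 304 in CI-AKI pools. In kidney it read 221, 226, 210.3 and 196 against 188, 223, 186 and 216. In plasma 3 of 4 CI-AKI pools lay below every control pool, and in kidney the groups overlapped widely. CI-AKI minus control was -0.68 (SE 0.27) in plasma and -0.07 (SE 0.08) in kidney, and the difference between them was -0.61 (95% interval -1.18 to -0.04, adjusted p = 0.929, limma).

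Without plasma CI-AKI pool 2, the array with the most detected miRNAs in plasma, 4 miRNAs passed in place of 1: miR-327, miR-335, miR-199a-3p and miR-195. This pool had the highest signal of its group for miR-335, miR-199a-3p and miR-195. Leaving out any other single array left miR-327 as the 1 call. The fit takes 1 spread for both tissues, so with fewer plasma arrays its SE leans toward the smaller kidney spread.

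The 12 miRNAs with the smallest p were completed by miR-23a, miR-24, miR-195, miR-466b, miR-23b, miR-874, miR-26b, miR-126* and miR-30d, all with an adjusted p of 0.929. MiR-874 and miR-30d had the more positive difference in plasma and the others the more negative one. MiR-874 differed by 0.79 (SE 0.30) in plasma and 0.27 (SE 0.16) in kidney. For miR-30d, 1.53-fold brighter in plasma than in kidney controls, the values were 0.52 (SE 0.35) and 0.05 (SE 0.06). For miR-126*, the passenger strand of the endothelial miR-126, they were -0.38 (SE 0.31) and 0.09 (SE 0.13), and for miR-26b -0.48 (SE 0.32) and -0.03 (SE 0.05).

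The miR-23, miR-27 and miR-24 miRNAs are widely expressed, in endothelium among other cells. All 5 had a higher mean in CI-AKI kidney (0.05 to 0.25, median 0.15), and 4 of 5 had a lower mean in CI-AKI plasma (-0.30 to 0.13, median -0.20). Over the 87, 52 means were higher in CI-AKI kidney and 48 lower in CI-AKI plasma. All 5 differences between tissues were below 0, as were 57 of the 87, with a median of -0.35 against -0.12 over the 87. Made from shared clusters, with near-identical sequences within miR-23 and within miR-27, they are not 5 independent readings. None of the 5 passed the test of that difference, in kidney or in plasma, and the 7 scalings tried kept the median below 0.

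MiR-23a read 4225, 4175, 3608 and 4406 in plasma control and 2938, 3572, 3309 and 3540 in plasma CI-AKI pools. In kidney it read 901, 1007, 1018 and 985 against 1014, 1154, 991 and 982. Every plasma CI-AKI pool lay below every plasma control pool, while the kidney groups overlapped. Between tissues it came to -0.38 (95% interval -0.76 to 0.01). The exact permutation test gave p = 0.0135.

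MiR-24 read 1136, 1478, 1250 and 1261 in plasma control and 1047, 1248, 1146 and 1047 in plasma CI-AKI pools. In kidney it read 477, 545, 527 and 537 against 626, 580.2, 625 and 546. The kidney groups stood apart by a narrow margin and the plasma groups overlapped. The log2 difference was -0.19 (SE 0.22) in plasma and 0.19 (SE 0.07) in kidney, and -0.38 (95% interval -0.77 to 0.01) between them. In the exact permutation test p was 0.0049, the smallest of the 87.

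MiR-23b gave p = 0.0167 and miR-335 p = 0.0204 in the same permutation test. In all, 4 miRNAs (4.6%) had an exact permutation p under 0.05, miR-24, miR-23a, miR-23b and miR-335, and 0 passed after Benjamini-Hochberg adjustment (smallest adjusted p = 0.426). This test assumes no treatment effect in either tissue, so a large difference in 1 tissue widens its reference spread, which holds for miR-327.

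The miR-15/16 family is known for restraining cell cycle genes. It had 4 of 4 lower means in CI-AKI plasma (median -0.30), against 48 of all 87 miRNAs. In kidney its values lay near 0 (-0.05 to 0.03). Between tissues the value was -0.62 (SE 0.33) for miR-195, -0.40 (SE 0.50) for miR-15b, -0.15 (SE 0.47) for miR-497 and -0.12 (SE 0.28) for miR-16. MiR-195 read 167, 195, 180.1 and 173 in plasma control and 100.3, 223, 79.5 and 110.1 in plasma CI-AKI pools, against 112 to 122 and 103.5 to 125 in kidney. MiR-15b ran from 528 to 741 in plasma control pools and from 282 to 1321 in plasma CI-AKI pools, where pool 4 was the highest. Without pool 4 its difference between tissues was -0.81. For miR-497 the plasma difference without pool 4 turned to 0.12, and the value between tissues to 0.17. Slide row 2 alone put miR-15b (0.33) and miR-16 (0.18) higher in CI-AKI plasma, and miR-195 (-0.92) and miR-497 (-0.69) lower.

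Of the let-7 family, which restrains growth and differentiation genes, 7 of 8 members qualified, miR-98 among them. All 7 had a lower mean in CI-AKI kidney (-0.10 to -0.05), as did 35 of all 87 miRNAs. In CI-AKI plasma 6 of 7 were lower (-0.61 for miR-98 to 0.13 for let-7i), as were 48 of the 87. The difference between tissues had a median of -0.27 and was below 0 for 6 of 7. Let-7d had nearly equal differences in both tissues, -0.11 (SE 0.23) in plasma and -0.10 (SE 0.05) in kidney. No member passed in plasma, in kidney or between them.

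The miR-30 family, which is rich in kidney epithelial cells, split. All 5 means were higher in CI-AKI kidney (0.03 to 0.18), as were 52 of all 87 miRNAs. In plasma miR-30a, miR-30d and miR-30e had higher means (0.39, 0.52 and 0.36), and miR-30b-5p and miR-30c lower ones (-0.17 and -0.07). The median difference between tissues was 0.31, with an interval of -0.74 to 1.36 for miR-30a alone. MiR-30a and miR-30e, like miR-188, were followed up by the study, which chose them on these samples. None of the 5 passed any of these tests.

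**Figure D3:**
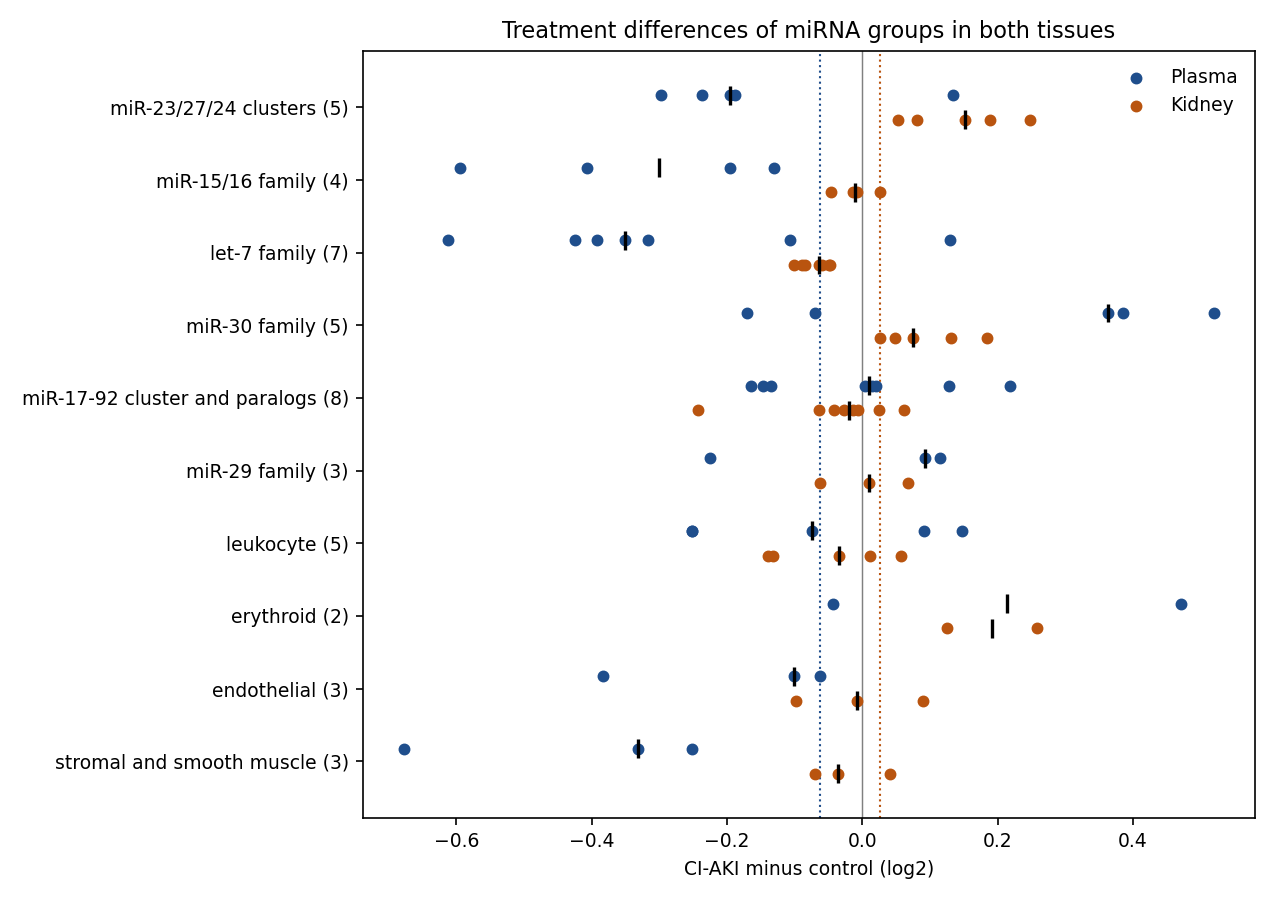
Treatment difference (CI-AKI minus control, log2) of the members of 10 miRNA groups, plasma in blue and kidney in orange, with the number of measured members in brackets. Short black bars are group medians and dotted lines the medians over all 87 miRNAs; the kidney points lie close to 0 and the plasma points spread from -0.68 to 0.52.

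Other groups lay close to the values over all miRNAs or held few members. The miR-17-92 cluster and its paralogs, which promote proliferation, had 4 differences between tissues above 0 and 4 below (median 0.02, 8 members). The antifibrotic miR-29 family had 2 above and 1 below (median 0.03). The leukocyte miRNAs had 2 above and 3 below (median -0.13), and the erythroid pair split, with 0.35 for miR-144 and -0.30 for miR-451. The stromal and smooth muscle miRNAs miR-143, miR-199a-3p and miR-214 were all below 0 (median -0.30), and so were the endothelial miR-126, miR-126* and miR-221 (median -0.05). MiR-192, 1 of the tubule-enriched miRNAs and the 1 of them that qualified, had -0.46 in plasma and -0.05 in kidney. The platelet miRNAs miR-24, miR-126 and miR-223 were all below 0 (median -0.26). Of 6 miRNAs listed for hypoxia 5 qualified, and 4 of these were below 0 (median -0.21), with miR-23a, miR-24 and miR-27a, counted above, among them. Of 6 listed for acute kidney injury 4 qualified, and 3 of these were below 0 (median -0.17). Both lists hold miR-24 and miR-21. Over all 87 miRNAs, 57 differences between tissues were below 0. In these groups miR-494 passed in kidney, and no other member passed in plasma, in kidney or between them. The remaining lists held 2 members or fewer, and 31 of the 87 miRNAs belonged to no list.

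Among the 65 miRNAs detected on every array, the largest differences between tissues in size were those of miR-195, miR-199a-3p, miR-139-3p (-0.60, SE 1.08), miR-874 and miR-30d. The smallest were those of let-7d (-0.01), miR-365 (-0.01), miR-125b-5p (-0.02), miR-29a (0.03) and miR-21 (0.04). MiR-21, a miRNA induced in many injured tissues, differed by 0.04 (SE 0.31) in plasma and by -0.0034 (SE 0.13) in kidney. Its 95% interval for the difference between tissues was -0.67 to 0.75, so these data do not show equal responses.

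How finely the tissues could be compared was set by plasma. The SD between pools within groups had a median of 0.483 in plasma and 0.119 in kidney, and it was larger in plasma for 86 of the 87 miRNAs, the exception being miR-188. Without pool 4 the plasma median was 0.403. The median SE of a treatment difference was 0.331 in plasma and 0.0817 in kidney. The 95% interval of the difference between tissues had a median width of 1.48, and it lay within 1 of 0 on the log2 scale for 45 miRNAs and within 0.5 for 2. The widest were those of miR-409-3p (-2.998 to 2.78) and miR-483 (-3.26 to 2.51).

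**Figure D4:**
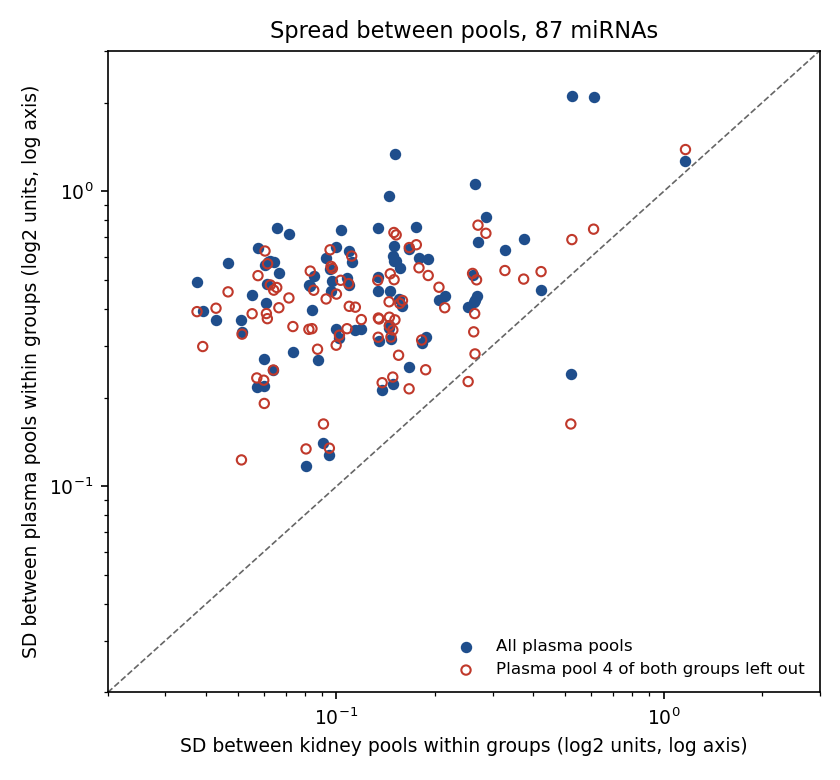
SD between pools within groups (log2 units, log axes) in kidney on the x axis and plasma on the y axis, 1 point per miRNA. Filled points use all pools and open points leave out plasma pool 4 of both groups; 86 of 87 filled points lie above the dashed line of equal spread.

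Over the 87, the treatment difference had a median of -0.06 in plasma and 0.03 in kidney, and the difference between tissues a median of -0.12, with 57 below 0 and 30 above. This split depends on the scaling, which moves the median over all miRNAs from -0.43 to 0.00. It was 79 below and 8 above when scaled to the labelling spike-in, 72 and 15 when the 75th percentile was taken over all 350, 66 and 21 without scaling and 43 and 44 with median scaling. Plasma and kidney differences had the same sign for 54 miRNAs and opposite signs for 33, of which 23 were lower in CI-AKI plasma and higher in CI-AKI kidney. Across the 87 miRNAs, which share arrays and scaling within a tissue and are not replicates, Pearson's r was 0.45 and Spearman's rho 0.38. Without the 4 highest kidney differences r was 0.21 over 83. The difference between tissues kept its sign for 47 miRNAs whichever array was left out and turned for 40.

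The number of detected miRNAs per array was 170.0 ± 57.9 in plasma control, 162.8 ± 50.5 in plasma CI-AKI, 180.2 ± 10.8 in kidney control and 198.8 ± 20.8 in kidney CI-AKI pools (SD, n = 4). CI-AKI minus control came to -7.25 in plasma, 18.5 in kidney and -25.8 between them (exact permutation test over 4900 labellings, two-sided, p = 0.492, adjusted over 2 such values 0.835). For the mean log2 signal before scaling, the values were -0.26 in plasma, -0.02 in kidney and -0.23 between them (exact permutation test, p = 0.835). Without pool 4 of both plasma groups these differences were -31.8 (exact permutation p = 0.127) and -0.59 (exact permutation p = 0.45).

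Without pool 4 of both plasma groups, 1 miRNA passed the test of the difference between tissues (1.15%), and 10 (11.5%) had an unadjusted p under 0.05, against 3 with all pools. Beside miR-327, miR-335 and miR-466b these were miR-874 (0.70), miR-30d (0.81), miR-378 (0.63) and miR-664 (0.65), whose treatment difference was more positive in plasma than in kidney, and miR-26b (-0.65), miR-126* (-0.77) and miR-15b (-0.81), whose treatment difference was more negative in plasma. None but miR-327 passed after adjustment (adjusted p 0.315 or above, limma). Because the fit takes 1 spread for both tissues, leaving out plasma arrays draws its SE toward the smaller kidney spread. The unadjusted count is thus not on a par with that from all pools.

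The letter codes were taken as a different grouping. With kidney treatments set by the plasma label of the letter, 83 miRNAs qualified and 0 passed in limma (4 with an unadjusted p under 0.05; smallest adjusted p = 0.288). MiR-188, miR-327, miR-335 and miR-466b did not qualify there, so their values were not tested in that grouping. With plasma treatments set by the kidney label, miR-327 (-4.09) and miR-188 (-1.72, adjusted p = 0.0224) passed. Which grouping matches the animals was not tested.

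Just outside the rule lay 69 miRNAs whose best group had 3 detecting arrays in 1 or both tissues and no fewer in either, and 65 of these fell short in plasma alone. Had plasma pool 4 been ignored, 152 miRNAs would have entered. At the inner edge of the rule, 16 of the 87 qualified in plasma through the CI-AKI group alone and 3 through the control group alone. In kidney 6 qualified through the CI-AKI group alone, miR-327, miR-188, miR-335 and miR-466b among them. For those 6 the rule itself used detection in the group where the signal was higher.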

How the data were processed

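The intensity of each spot on 16 1-colour Agilent rat miRNA arrays (7000 spots, 938 probes, 350 miRNAs) was read by the authors with Agilent Feature Extraction 10.7.3.1, per the file headers; the deposited processed signal is background-corrected. The authors' deposited table of log2 values served as an alternative. Spots of a probe and then probes of a miRNA were averaged without outlier-flagged and control spots. For scaling, the 65 miRNAs that all 16 arrays detected gave each array a 75th percentile, and arrays were brought to the geometric mean of those values. Values under a floor of 1.31 (each array's lowest detected scaled signal, median taken over the 16) were set to it before log2, which understates changes of dim miRNAs. Differences between tissues come from 1 limma fit (limma 3.58.1, R 4.3.3; lmFit and eBayes, two-sided) of 4 group means over 16 arrays, and differences within a tissue from its 8 arrays, each with Benjamini-Hochberg adjustment over 87 miRNAs at 0.05. Intervals are 95% limma intervals. The fit was tested on simulated data.

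Named are the miRNAs past the threshold, the 12 smallest p of the difference between tissues, the 5 smallest p in plasma and in kidney, the 5 largest and 5 smallest differences among miRNAs detected on all arrays, and members of 26 miRNA lists; miR-15b, miR-378, miR-664, miR-409-3p and miR-483 are named after their values were seen where they fall outside these. The miRNAs and lists were chosen with earlier results of these data known. Arm names in RefSeq were matched by the usual guide strand for all but 12 miRNAs, which matched by exact name. The files hold no mean spot signal, so the normexp alternative (offset 50) used median signals. Same-numbered plasma pools of the 2 treatments deviated together (correlations over the 87 miRNAs 0.20 to 0.71). In kidney the correlations ranged from 0.09 to 0.67. The labels give no reason for a pairing, but same-numbered pools of a tissue lay in neighbouring columns of the same slide row. The main fit does not block on pool number. The number of pools limits the precision.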

Additional observations from a re-analysis of the deposited data

Results flagged for a closer look

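MiR-327 was the 1 miRNA whose treatment difference was tested and found to differ between the tissues: plasma minus kidney was -2.27 on the log2 scale. It had entered in kidney through the CI-AKI group alone. Within groups of 4 pools, 56 sets of values were checked for 1 pool far from the other 3, and 5 were found, where chance gives about 1 in 20. Plasma control pool 4 had 84 detected miRNAs and the other plasma control pools 188 to 208. Kidney CI-AKI pool 3 had a mean log2 signal before scaling of 7.95 and the others 8.80 to 8.95. MiR-466b read 6.75 on the log2 scale in plasma CI-AKI pool 3 and 5.68 to 5.72 in the others. MiR-30d read 8.55 in plasma control pool 1 and 9.19 to 9.26 in the others. MiR-327 read 0.54 in kidney control pool 1, and the other kidney control pools stood at the floor of 0.38, so that gap lies among signals no array detected.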

How the results depend on the processing

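The number of miRNAs whose difference between tissues passed was 1 with all arrays. It was 0 without scaling, with normexp, with the floor of 43.2, among the 65 miRNAs detected on all 16 arrays (which leaves out miR-327), in the exact permutation test and with kidney treatments by letter, 2 with plasma treatments by letter, and 1 to 4 leaving out 1 array. In kidney the number was 1 under both quantile normalizations and 0 with normexp, with the floor of 43.2 and among the 65. In plasma it was 0 in each of these settings but the permutation test and the letter groupings, for which no plasma count was made. Without scaling the difference between tissues for miR-327 was -2.69 (adjusted p = 0.997, limma), in size above the -2.27 with scaling. With normexp on median signals the sign of the difference between tissues turned for miR-327 (0.52), miR-335 (0.33), miR-199a-3p (0.013), miR-195 (0.33), miR-466b (0.67) and miR-126* (0.49). With the floor of 43.2, which lies above the kidney signals, it turned for miR-327 (0.93) and miR-466b (0.083). The cause of the normexp values was not tested. The difference between tissues in log2 signal before scaling was 0.078 from the 75th percentile and -1.36 to 0.54 leaving out 1 array. With the pool number as a replicate block within tissue, 1 miRNA passed between tissues and 2 in kidney, miR-494 being lost; miR-494 was also lost in settings where the kidney count stayed at 3, among them no scaling and spike-in scaling. Signal over background on plasma pool 4 limits what could be read in plasma.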

Other observations

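MiR-139-3p varied with the side of the slide in every group. Its scaled signal in pools 1 to 4 was 757, 152, 576 and 187 in plasma control, 493, 79.2, 489 and 115 in plasma CI-AKI, 36.8, 7.05, 35.5 and 8.74 in kidney control and 26.7, 9.05, 35.3 and 8.77 in kidney CI-AKI. Pools 1 and 3 lay in slide columns 1 and 2 and pools 2 and 4 in columns 3 and 4, on both slides. In all 4 groups both pools of columns 1 and 2 were the higher ones, with log2 differences of 1.97, 2.36, 2.20 and 1.78. It was the 1 miRNA of the 87 whose sides stood apart in the same direction in every group. The means of the treatments balance these sides, but the SE of its treatment difference, 0.72 in plasma and 0.70 in kidney, contains them. What the sides share beside their place on the slide was not tested.

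MiR-409-3p and miR-483 had their widest spread in plasma for another set of arrays. MiR-409-3p read 322 and 199 on the control and CI-AKI arrays of plasma pool 4 and 9.38 to 36.3 on the other plasma arrays. MiR-483 read 251 and 93.4 on those pool 4 arrays and 5.69 to 23.4 on the others. Other miRNAs also read highest on both, miR-664 among them (178 and 112 against 16.9 to 40.1). These arrays had the lowest mean log2 signal before scaling, 4.27 and 5.07. The part of scaling in these values was not tested. In kidney CI-AKI, pool 3 read 15.7 for miR-409-3p, 9.46 for miR-483 and 10.1 for miR-188, and the other 3 pools 5.99 to 6.13, 2.86 to 3.35 and 3.55 to 3.99.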
